A study of Mus musculus with 6 samples.

Results

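The response of mouse liver to the hormone FGF15 was read as the difference between the 2 arrays titled FGF15 and the 2 arrays titled vehicle, over every non-control probe set that the platform annotation pairs with exactly 1 gene. These 4 arrays were part of a series of 6. The probe sets stood for 12393 genes, every gene that has such a probe set, and 9692 of them passed a filter on low signals and were tested. Both groups were wild-type male C57Bl/6 mice from Jackson Laboratories, injected through the jugular vein and kept without food for the 6 h until the liver was taken and frozen. The injection was vehicle in one group and purified FGF15 in the other. The third group of the series, 2 arrays with recombinant FGF19, entered the same model, where it adds to the estimate of the spread. For the dose, the vehicle's makeup and the age of the mice, no value is given in the sources used here. Whether 2 arrays of a group stand for 2 mice is not said in the labels, so the p-values reflect array-to-array spread alone, possibly technical.

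FGF15 is made by the epithelium of the ileum when bile acids are taken up there, and it reaches the liver in the portal blood. Hepatocytes bind it with the receptor tyrosine kinase FGFR4 and the co-receptor β-Klotho, and signalling runs through adaptor proteins to the kinase ERK. The hormone is known for shutting down Cyp7a1, whose enzyme sets the rate of bile acid synthesis, and for lowering glucose production after a meal. The comparison asks which liver transcripts differ from vehicle after the hormone.

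Liver was measured on Affymetrix Mouse Genome 430A 2.0 arrays, and a signal is the deposited brightness of a probe set on a linear scale. The deposited signals had been scaled to 1 trimmed mean on each array. Median signals were 61.4 and 59.4 on the vehicle arrays and 55.2 and 51.3 on the FGF15 arrays. Of 13 measured hepatocyte markers 12 did not pass the test below, and Alb, albumin, read 10506 and 9934 with vehicle and 8879.7 and 9519 with FGF15. The 10 measured markers of T and NK cells had mean signals of at most 36.4 in either group, near the offset of 32 that was added before logarithms were taken. Over all non-control probe sets, which are no replicates of each other, log2 values had r = 0.989 for the pair of vehicle arrays and 0.988 for the pair of FGF15 arrays. Of 18 bacterial and phage hybridisation controls, 10 were lower on both FGF15 arrays than on both vehicle arrays and 1 was higher, with a median log2 difference of -0.13 (range -0.34 to 0.16), and their part in the counts was not tested.

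With FGF15, 569 genes rose and 644 fell at an adjusted p under 0.05 in limma, which is 5.87% and 6.64% of the genes tested. Changes are on the log2(signal + 32) scale, which compresses the change of dim genes. Most called changes were small. The median log2 change was 0.44 for the genes that rose and -0.56 for those that fell, 429 and 353 of them moved less than 1.5-fold, and 37 and 54 moved at least 2-fold. Rises of at least 4-fold were found for 3 genes and falls of that size for 4. Over all genes tested the median change was -0.05, and the 5th and 95th percentiles were -0.52 and 0.39.

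Of 3 other scalings, centring on medians moved the balance of rises and falls. When each array was centred on its own median, all changes moved up by 0.12 on the log2 scale and the split became 1008 up and 356 down, so that 73.9% of called genes were higher in place of 46.9%. Quantile and cyclic loess scaling gave 51.6% and 49.7% higher. A single array also moved the counts. Omission of vehicle replicate 1 gave 271 up and 267 down, and omission of vehicle replicate 2 gave 298 and 305. Omission of FGF15 replicate 1 gave 406 and 489, and omission of FGF15 replicate 2 gave 321 and 401. The changes called in all 4 of these fits were 207 rises and 212 falls, and all of them were also called after centring. They are referred to as changes that held. Calls were rare among dim genes. In the lowest of 4 equal classes by vehicle signal 0.702% rose and 0.743% fell, and in the highest class 14.2% rose and 12.1% fell.

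**Figure D1:**
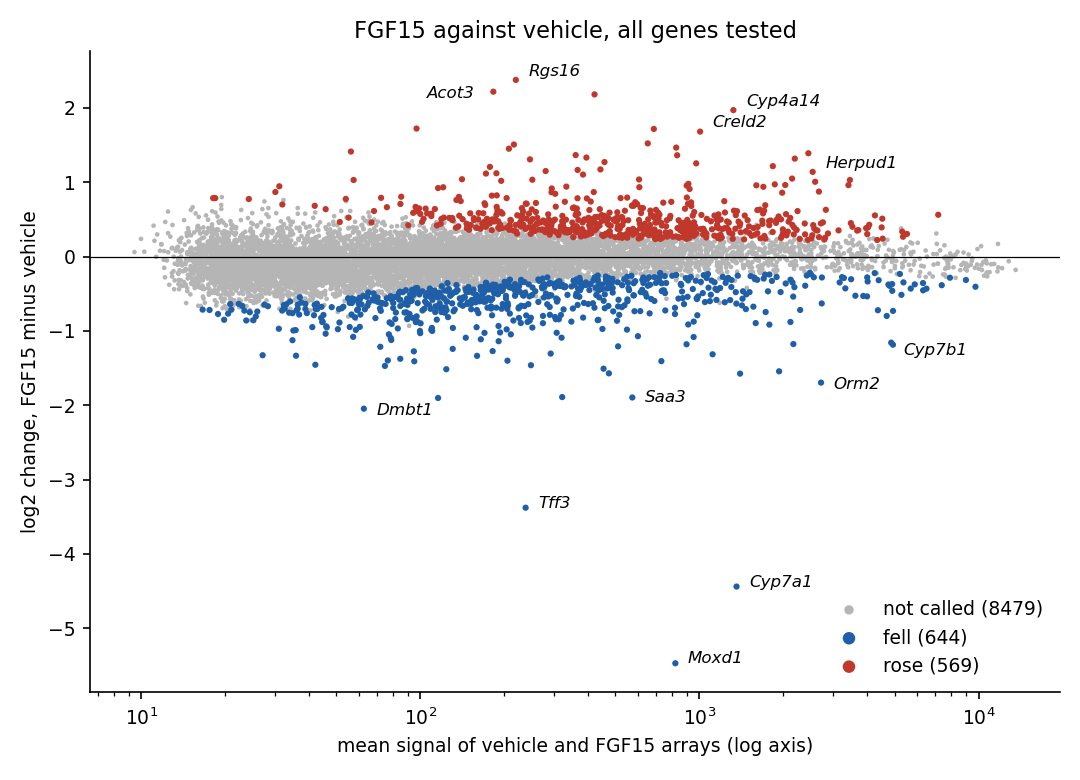
Log2 change with FGF15 (vertical axis, log2(signal + 32)) against the mean signal of the 4 arrays (horizontal axis, log scale) for the 9692 genes tested, with genes that rose in red, that fell in blue and the 8479 not called in grey. Moxd1, Cyp7a1 and Tff3 lie far below all other genes, while the rises end at Rgs16 with a log2 change of 2.38.

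The genes that rose most among the changes that held were those of a G protein regulator, of fatty acid and retinoid enzymes and of the endoplasmic reticulum (ER). Rgs16, which speeds the switching off of G protein signals, had signals of 41.4 and 58.0 with vehicle and 401 and 379 with FGF15, a log2 change of 2.38 ± 0.11, adjusted p = 1.3e-06. Its other 2 probe sets gave 1.78 and 1.51. Cyp26a1, which breaks down retinoic acid, read 149 and 115 with vehicle and 748 and 669.8 with FGF15 (2.18 ± 0.11, adjusted p = 1.9e-06). Both FGF15 arrays lay far above both vehicle arrays in each of these genes. Acot3, an acyl-CoA thioesterase, read 48.3 and 38.1 with vehicle and 379 and 265 with FGF15 (2.22 ± 0.16) on a probe set that can bind related transcripts. Cks1b, a subunit of cyclin-dependent kinases, read 184 and 190.2 with vehicle and 571 and 495 with FGF15 (1.36 ± 0.09). Leap2, a liver peptide that blocks the ghrelin receptor, read 524 and 602 with vehicle and 1379 and 1388 with FGF15 (1.25 ± 0.08). In these 3 as well, the lowest FGF15 array was above the highest vehicle array.

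The falls went deeper than the rises. Cyp7a1 read 2677 and 2572 with vehicle and 91.5 and 89.4 with FGF15, a log2 change of -4.44 ± 0.09, adjusted p = 3.3e-09, and its second probe set gave -4.05. Cyp8b1, the sterol hydroxylase needed for cholic acid, read 1171 and 1317 with vehicle and 669 and 656 with FGF15 (-0.88 ± 0.10), and that fall held. Moxd1, which encodes a monooxygenase-like protein, read 1685 and 1581 with vehicle and 10.2 and 1.37 with FGF15, and Tff3, a secreted trefoil peptide, read 470.2 and 449.5 with vehicle and 5.44 and 27.7 with FGF15. The FGF15 signals of both lay below the offset of 32, so the offset sets the size of their log2 changes (-5.47 ± 0.15 and -3.38 ± 0.19). Ctse, the aspartic protease cathepsin E, read 3144 and 2635 with vehicle and 905 and 1031 with FGF15 (-1.54 ± 0.10) on a probe set that can bind related transcripts, while its other probe set gave 0.22 and was not called. Srxn1, which restores oxidised peroxiredoxins, read 698 and 674 with vehicle and 219 and 222 with FGF15 (-1.51 ± 0.07), again on a probe set open to related transcripts. Ppargc1a, a coactivator of glucose production genes, read 204 and 198 with vehicle and 31.0 and 29.7 with FGF15 (-1.90 ± 0.12). Its FGF15 signals also lay below the offset, and its other 4 probe sets, all called lower, gave smaller changes of -1.332 to -1.105. Ddc, aromatic amino acid decarboxylase, read 526 and 526 with vehicle and 119.9 and 117 with FGF15 (-1.89 ± 0.11). The 20 genes that rose most and the 20 that fell most had been chosen to have no overlap between the arrays of the groups. Such a gap was found for all 1213 called genes and for 5328 of the 9692 tested. Here and below, a gap between the groups therefore adds nothing to a call.

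**Figure D2:**
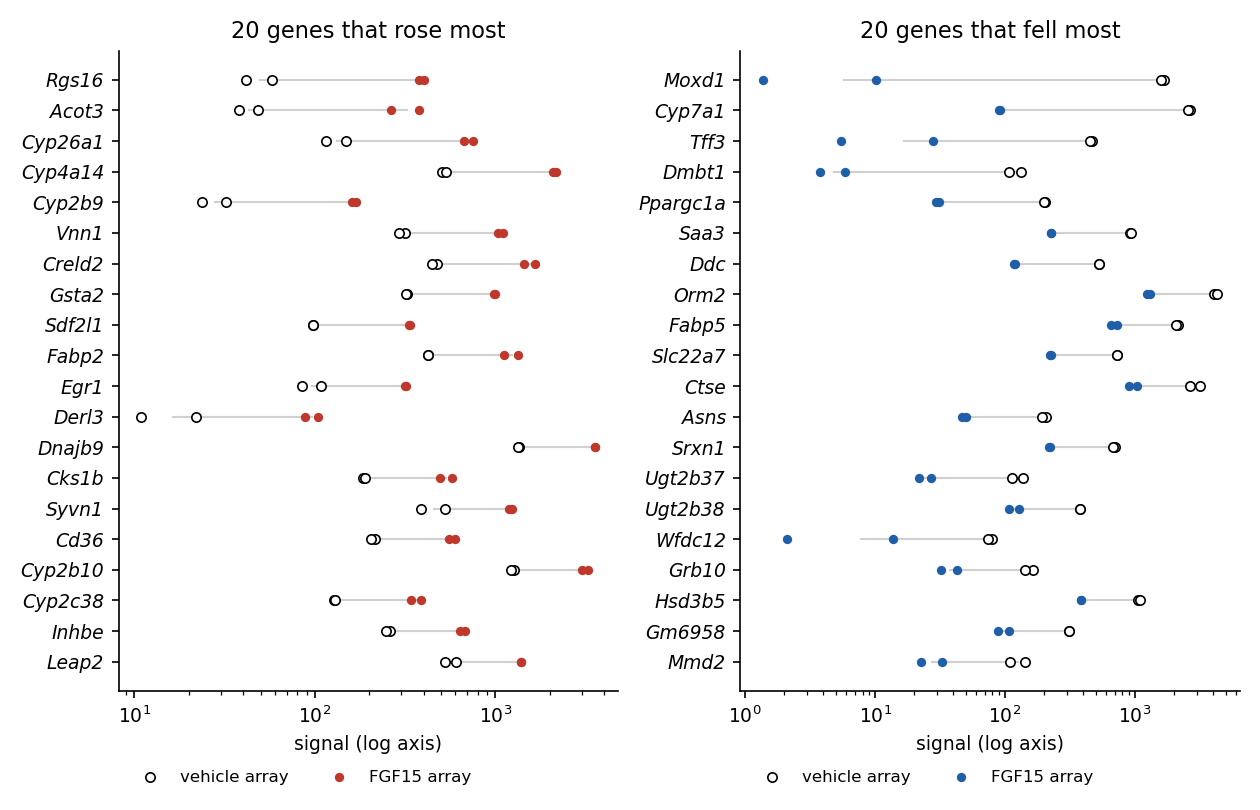
Signal on each vehicle array (open circles) and each FGF15 array (filled circles) for the 20 genes that rose most and the 20 that fell most among the changes that held, on a log axis, with a line between the group means. The arrays of a group lie close together next to the gap between groups, and the exceptions are dim genes such as Moxd1 and Tff3 with FGF15.

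Shares of a list in brackets are to be read against the 5.87% of all genes tested that rose and the 6.64% that fell, and a share near these says little about the list. In the highest class by vehicle signal the shares were 14.2% and 12.1%. Lists of bright genes can exceed the all-gene shares for that reason, and shares near those of the highest class say little about them. No list was matched for signal, and all were chosen with earlier results of these data known. Many genes of the ER rose, and no member of the ER lists was called lower in the fit of all 6 arrays. That did not hold for the chaperone list in every fit that left out 1 array. The ER folds secreted proteins with chaperones and hands failed ones to a degradation pathway, and cells under a folding load raise these genes through the transcription factors ATF6 and XBP1. Of 46 measured genes of ER chaperones and degradation, 21 rose and none fell, with 25 not called. That is 45.7% rising, against 5.87% of all genes tested, and the median change was 0.25 against -0.05. At an unadjusted p under 0.05 in limma 27 were higher and 1 was lower. Of these rises 17 held, and 22 to 27 were called under the 3 other scalings. Of 50 measured genes of ER entry, glycosylation and vesicle transport, 23 rose and none fell, 30 and 0 at an unadjusted p under 0.05, with a median of 0.26. In this list the count was 10 without vehicle replicate 1 and 13 without FGF15 replicate 2, 10 rises held, and 20 to 31 were called under the other scalings.

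The 7 log2 changes above 1 in the first of these lists included BiP partners and degradation genes. Creld2, a disulfide isomerase-like protein, read 475 and 447 with vehicle and 1448 and 1651 with FGF15, a log2 change of 1.68 ± 0.08, adjusted p = 1.2e-06. Sdf2l1, which works with the chaperone BiP, read 97.2 and 97.3 with vehicle and 332 and 338 with FGF15 (1.51 ± 0.10), and Dnajb9, a BiP co-chaperone, 1351 and 1335 with vehicle and 3571 and 3566 with FGF15 (1.39 ± 0.06). All 3 genes had an FGF15 level well over the vehicle level on each array. In the degradation branch, Derl3 of the retrotranslocation channel read 10.9 and 21.9 with vehicle and 104 and 88.1 with FGF15 (1.41 ± 0.17), Syvn1, the ubiquitin ligase HRD1, 526 and 385 with vehicle and 1232 and 1185 with FGF15 (1.36 ± 0.14), and Herpud1 of the same complex 1554 and 1600.4 with vehicle and 3451 and 3573 with FGF15 (1.14 ± 0.06). Derl3 lay below the offset of 32 on both vehicle arrays, and vehicle replicate 1 of Syvn1 stood above replicate 2 but far under both FGF15 arrays. Hspa5, which encodes BiP itself, read 3625 and 3826 with vehicle and 5383 and 5248 with FGF15 (0.51 ± 0.07, adjusted p = 0.001), and its other probe set gave 0.50. Atf6, the transcription factor, rose by 0.55 ± 0.08, while Xbp1 did not pass (0.22 ± 0.07, adjusted p = 0.057). Calr, Canx and Hsp90b1, 2 lectin chaperones and the chaperone GRP94, did not pass on the probe sets used (0.15, 0.04 and 0.06), although a second probe set was called higher for Calr (0.32) and Hsp90b1 (0.50).

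Among the genes of transport, Sec23b and Sec24d, coat proteins of the vesicles that leave the ER, rose by 0.74 ± 0.09 and 0.55 ± 0.07. Sec61b, of the channel through which new proteins enter the ER, read 1196 and 1269 with vehicle and 1773 and 1713 with FGF15 (0.49 ± 0.06). Rpn1, of the enzyme that attaches sugar chains, rose by 0.55 ± 0.06, and Srp68 of the signal recognition particle by 0.52 ± 0.07. The largest change in this list was the 1.67-fold rise of Sec23b.

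The promoters of the ER genes were searched because many of them rose and a known element, the ER stress response element (ERSE), is bound by ATF6. RefSeq promoters of assembly GRCm38.p6, from 250 bases before to 50 bases after a start site, were matched to 7840 of the 9692 genes tested. The ERSE letters, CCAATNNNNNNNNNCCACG on either strand, stood in a promoter of 15 of these genes, or 0.191%, and in 39 of all 32851 promoters of the table, or 0.119%. Of 42 ER chaperone and degradation genes with a promoter, 10 held the letters. They were 7 of the 19 that rose and 3 of the 23 that were not called. These windows, the 7 genes that rose and then the 3 others, carry 20 bases on either side of the match and read 5′ to 3′ along the gene's strand. Capitals mark the fixed letters of the ERSE, which read CGTGG and ATTGG where the match is on the opposite strand.
Creld2 chr15:88819500-88819558 (+): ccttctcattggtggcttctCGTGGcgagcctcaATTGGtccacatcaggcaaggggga
Derl3 chr10:75893222-75893280 (+): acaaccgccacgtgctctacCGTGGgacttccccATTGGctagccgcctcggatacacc
Dnajc3 chr14:118937807-118937865 (+): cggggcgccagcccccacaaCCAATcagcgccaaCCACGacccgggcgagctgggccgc
Ero1b chr13:12565662-12565720 (+): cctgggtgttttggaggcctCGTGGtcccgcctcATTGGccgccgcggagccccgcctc
Hspa5 chr2:34772005-34772063 (+): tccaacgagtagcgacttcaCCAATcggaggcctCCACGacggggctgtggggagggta
Pdia6 chr12:17266471-17266529 (+): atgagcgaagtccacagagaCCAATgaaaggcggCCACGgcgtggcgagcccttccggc
Syvn1 chr19:6046512-6046570 (+): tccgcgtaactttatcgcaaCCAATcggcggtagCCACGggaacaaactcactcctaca
Calr chr8:84847055-84847113 (-): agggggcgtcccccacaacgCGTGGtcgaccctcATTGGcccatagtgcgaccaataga
Canx chr11:50325780-50325838 (-): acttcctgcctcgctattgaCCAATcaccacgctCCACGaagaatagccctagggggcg
Hsp90b1 chr10:86705618-86705676 (-): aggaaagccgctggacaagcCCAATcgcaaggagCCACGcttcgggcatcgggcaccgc
Hsp90b1 chr10:86705513-86705571 (-): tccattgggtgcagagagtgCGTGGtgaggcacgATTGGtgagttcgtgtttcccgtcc
The element was in its forward sense in Dnajc3, Hspa5, Pdia6, Syvn1, Canx and 1 of the 2 copies of Hsp90b1, and on the opposite strand in the others. Its first base lay between positions -212 and -44 from the start site. All 7 rises held, from 0.50 for Dnajc3, which restrains the kinase PERK, to 1.68 for Creld2. Genes with these letters stood at the top of the list and among the chaperones that did not pass, and Sdf2l1, Dnajb9 and Herpud1 rose by over 1 on the log2 scale without a match in this window.

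Outside the ER list, the letters were found in Acacb, Acnat2, Alg12 and Pan2, none of which was called, and in Adcy3, an adenylate cyclase that fell (-0.70 ± 0.17) in a call that did not hold (adjusted p = 0.0618 on omission of vehicle replicate 1, 0.136 on omission of vehicle replicate 2, 0.0538 on omission of FGF15 replicate 1 and 0.0950 on omission of FGF15 replicate 2). None of 41 genes of ER entry and transport with a promoter held the ERSE. The letters TGACGTGG, the core of an XBP1 element, were in 12.2% of these 41 genes, 9.52% of the 42 ER chaperone genes, 3.01% of the 465 genes that rose, 0.201% of the 497 that fell and 0.995% of all 7840. Among the ER chaperone genes they were in 1 of the 19 that rose and 3 of the 23 not called. For ER entry and transport it was 3 of the 18 that rose and 2 of the 23 not called. Another 5 motifs were counted on both strands. The cAMP element TGACGTCA was in 1.72% of risers, 3.22% of fallers and 3.34% of all genes, and the EGR site GTGGGCG in 17.0%, 15.7% and 15.5%. The E-box CACGTG was in 11.4%, 10.1% and 11.6%, TTGCATCA of C/EBP and ATF4 in 1.08%, 1.21% and 0.867%, and the D-box TTATGTAA in 1.51%, 0.402% and 0.727%. These matches describe letters in a window and carry no test.

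**Figure D3:**
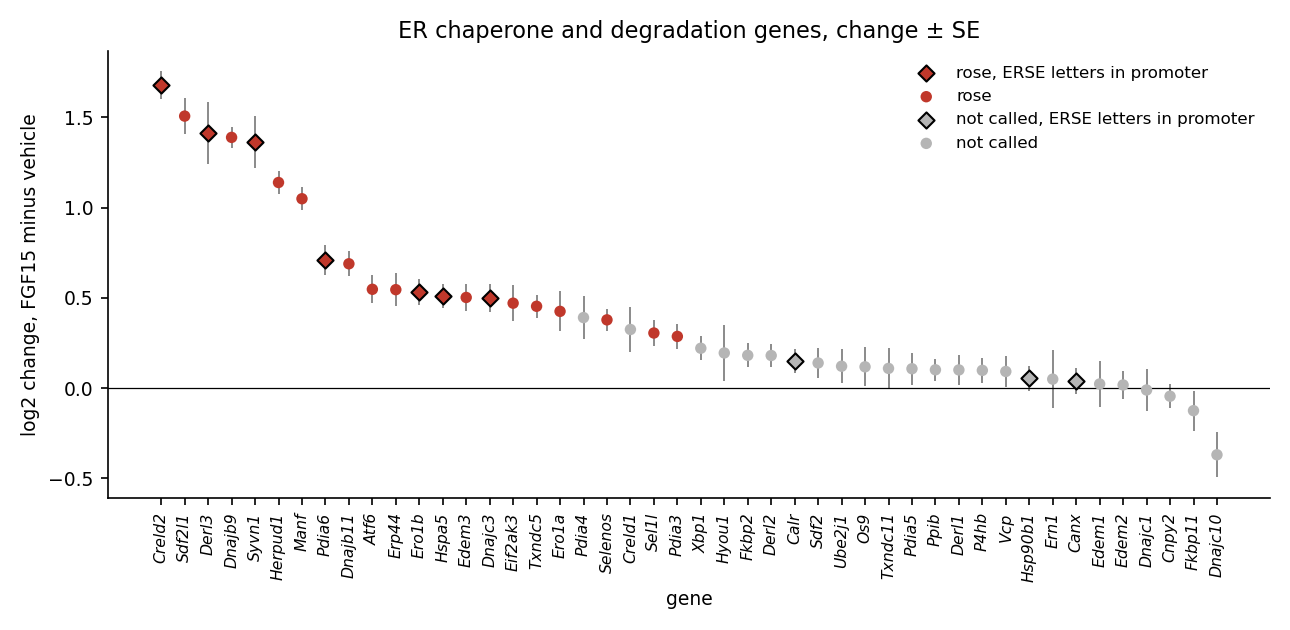
Log2 change with FGF15 (vertical axis, bars are limma standard errors, 2 arrays a group) of the 46 measured ER chaperone and degradation genes, ordered by size, with genes that rose in red, genes not called in grey, and diamonds where a promoter holds the ERSE letters. A group of 7 genes from Creld2 to Manf lies above 1, and the diamonds run from the top of the series down to Hsp90b1 and Canx near 0.

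Of 18 measured FGF receptors, co-receptors and adaptors, none rose and 3 fell (0% and 16.7%) in limma, 1 and 7 at an unadjusted p under 0.05, and none of the falls held. Klb, which encodes β-Klotho, read 186 and 197 with vehicle and 141 and 132 with FGF15, a log2 change of -0.41 ± 0.11, adjusted p = 0.041, and the call ended with centring and when any 1 of the 4 arrays was left out (adjusted p = 0.124 on omission of vehicle replicate 1, 0.178 on omission of vehicle replicate 2, 0.0792 on omission of FGF15 replicate 1 and 0.157 on omission of FGF15 replicate 2). Fgfr4 read 134 and 121 with vehicle and 104 and 95.3 with FGF15 and did not pass (-0.27 ± 0.12, adjusted p = 0.2). Further along, 4 of 30 feedback and immediate early genes of ERK signalling rose and 2 fell (13.3% and 6.67%). Egr1, an immediate early transcription factor, read 85.1 and 108 with vehicle and 315 and 321 with FGF15 (1.45 ± 0.09), Dusp6, the phosphatase that switches ERK off, 163 and 162 with vehicle and 416 and 383 with FGF15 (1.15 ± 0.08), and Klf10 139 and 143 with vehicle and 274 and 259 with FGF15 (0.79 ± 0.09). These 3 rises held, with every FGF15 array above every vehicle array, and neither of the falls did. Of 10 RGS genes Rgs16 alone rose. Rgs5, a marker of pericytes, fell (-0.54 ± 0.07), and the fall of Rgs2 ended when any 1 array was left out (adjusted p = 0.113 on omission of vehicle replicate 1, 0.111 on omission of vehicle replicate 2, 0.0980 on omission of FGF15 replicate 1 and 0.0638 on omission of FGF15 replicate 2).

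Of 31 nuclear receptors 3 rose and 2 fell (9.68% and 6.45%). Nr0b2, which encodes the repressor SHP, read 120.3 and 116 with vehicle and 269 and 274 with FGF15 (1.02 ± 0.09, adjusted p = 7.4e-05), and Nr1i3, the xenobiotic receptor CAR, 256 and 279.8 with vehicle and 442 and 441 with FGF15 (0.66 ± 0.08). Both held, and neither of the falls did. Of 23 liver-enriched transcription factors, 3 rose and 6 fell (13% and 26.1%), of which Tbx3 (0.71 ± 0.13) and Cebpb (-0.41 ± 0.06) held. The other probe set of Tbx3 gave 0.20 and was not called. The risers were 1 without any of the 4 arrays in turn, and the fallers 3 with centring, where the risers were 5, 4 without either FGF15 array, and 1 and 2 on omission of vehicle replicates 1 and 2. Among 31 genes of BMP and TGF-beta signalling 4 rose and 2 fell (12.9% and 6.45%), with 2 risers without either vehicle array or FGF15 replicate 2. Id2 and Id3, inhibitors of helix-loop-helix factors, rose from 1383 and 1410.4 to 2465 and 2656 for Id2 (0.86 ± 0.07) and from 378 and 397 to 811 and 844 for Id3 (1.04 ± 0.07).

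The insulin pathway list had 1 riser and 4 fallers of 29 (3.45% and 13.8%). With centring this turned into 4 risers and 2 fallers, and the fallers were 2 without vehicle replicate 1. Grb10, an adaptor that restrains the insulin receptor, read 163 and 142 with vehicle and 42.7 and 32.4 with FGF15 (-1.41 ± 0.16, adjusted p = 0.00033). Its other 2 probe sets gave -0.59 and -0.01, and neither was called. Eif4ebp1, the translation repressor that mTOR phosphorylates, read 669 and 709.7 with vehicle and 488 and 453 with FGF15 (-0.52 ± 0.08) on a probe set that can bind related transcripts. The falls of Grb10 and Eif4ebp1 held on the probe sets used. Of 32 genes listed with secreted hormones and growth factors of liver, 5 rose and 7 fell (15.6% and 21.9%). The list was chosen with earlier results of these data known. Its shares may thus be partly fixed in advance and are no independent result about secreted factors. It also holds Tnfrsf12a, a receptor, and Mrap, a receptor accessory protein, which are neither hormones nor growth factors. Both are among its 3 falls that held. Inhbe, the activin E subunit, read 262 and 247 with vehicle and 638 and 679.7 with FGF15 (1.27 ± 0.09) and Fgf1 363 and 346 with vehicle and 556 and 519 with FGF15 (0.56 ± 0.07). Tnfrsf12a, the TWEAK receptor, read 176 and 213 with vehicle and 42.2 and 90.7 with FGF15 (-1.24 ± 0.20), and its FGF15 arrays were apart from each other but both under the vehicle arrays. Mrap, an accessory protein of the ACTH receptor, read 1206 and 1408 with vehicle and 582 and 615 with FGF15 (-1.08 ± 0.08), and Agt, angiotensinogen, 2532 and 2615 with vehicle and 1802 and 1720 with FGF15 (-0.54 ± 0.07). These 5 changes held. The fallers of this list were 3 without vehicle replicate 2, 4 without vehicle replicate 1 or with centring, and the risers 2 without vehicle replicate 1 and 3 without either FGF15 array.

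Enzymes that handle long-chain and dicarboxylic fatty acids were mostly higher or not called. Of 31 measured fatty acid hydroxylases, acyl-CoA thioesterases and their partners, 15 rose and 2 fell, a rising share of 48.4% against 5.87% of all genes, with a median change of 0.26. Of the rises 11 held, and 14 to 17 were called under the other scalings. Cyp4a14, an omega-hydroxylase, read 504 and 535 with vehicle and 2092 and 2159.9 with FGF15 (1.97 ± 0.06, adjusted p = 1.3e-07). Vnn1, the pantetheinase that recycles coenzyme A precursors, read 316 and 291 with vehicle and 1103 and 1035 with FGF15 (1.72 ± 0.08). Aldh3a2, fatty aldehyde dehydrogenase, read 603 and 604 with vehicle and 1295 and 1148 with FGF15 (0.98 ± 0.07). FGF15 arrays were above vehicle arrays by a wide margin in these 3 genes. Acaa1b, a peroxisomal thiolase, read 5745 and 5809.6 with vehicle and 7970.0 and 9157 with FGF15 (0.56 ± 0.09), and Ehhadh and Ech1, of the same organelle, rose by 0.58 ± 0.06 and 0.63 ± 0.07. Cyp4a31, another omega-hydroxylase gene, fell (-1.38 ± 0.14). Of 18 genes of peroxisome biogenesis, 4 rose and none fell (22.2% and 0%) in limma, 6 and 0 at an unadjusted p under 0.05, led by Pex3 (0.61 ± 0.09) and Pex11a (0.51 ± 0.07), which held. Omission of FGF15 replicate 2 or of vehicle replicate 1 gave 2, and 4 to 6 rose under the other scalings.

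The list of lipid droplets and lipolysis split. It also holds Fabp2, Cd36 and Fabp5, which bind or carry fatty acids and are not droplet proteins. Of 23, 7 rose and 5 fell (30.4% and 21.7%), and 6 and 3 of these held. Fabp2, the intestinal-type fatty acid binding protein, read 421 and 424 with vehicle and 1119 and 1336 with FGF15 (1.46 ± 0.09), Cd36, a fatty acid transporter, 215 and 204 with vehicle and 554 and 599.7 with FGF15 (1.33 ± 0.08), and G0s2, an inhibitor of triglyceride lipase, 614 and 591 with vehicle and 1172 and 1223 with FGF15 (0.95 ± 0.07). Plin2, which coats droplets, and Fitm1, which takes part in forming them, also rose (0.96 ± 0.07 and 0.92 ± 0.08). In the other direction Fabp5 read 2136 and 2082 with vehicle and 650.1 and 725 with FGF15 (-1.58 ± 0.07), and the droplet coat genes Plin4 and Plin5 fell (-0.88 ± 0.13 and -0.52 ± 0.09). Paralogs thus moved in opposite directions within the families of binding proteins and droplet coats, in each case with the arrays of the groups apart. Omission of FGF15 replicate 2 or of vehicle replicate 2 gave 3 fallers.

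Srebf1, the SREBP-1 regulator of fat synthesis, read 641 and 629 with vehicle and 373 and 401 with FGF15 (-0.67 ± 0.07), a fall that held. For lipoproteins, 3 of 27 measured genes rose and 7 fell (11.1% and 25.9%), and centring turned this into 6 and 3. Pltp, the phospholipid transfer protein, read 709 and 713 with vehicle and 1117 and 1199.6 with FGF15 (0.68 ± 0.07), although its other probe set gave -0.27 and was not called, and Mttp, which loads lipid onto apolipoprotein B, 1621 and 1613 with vehicle and 2249 and 2357 with FGF15 (0.50 ± 0.07). Apom, which carries sphingosine phosphate on HDL, read 2179 and 2163 with vehicle and 1254 and 1308 with FGF15 (-0.75 ± 0.06), Lpl, lipoprotein lipase, fell (-0.86 ± 0.14) and Scarb1, the HDL receptor (-0.56 ± 0.07). These 5 changes held, and the fallers were 3 without either vehicle array. Of 13 genes of triglyceride synthesis, Lpin1, a phosphatidate phosphatase, read 3117 and 2927 with vehicle and 1311 and 1325 with FGF15 (-1.18 ± 0.07) and Acsl5, an acyl-CoA synthetase, 1740.5 and 1750.2 with vehicle and 2400.4 and 2455 with FGF15 (0.47 ± 0.06). Acsl4 and Gpat4 of that list fell in calls that did not hold (adjusted p of Acsl4 0.121 on omission of vehicle replicate 1 and 0.0655 on omission of FGF15 replicate 1; of Gpat4 0.0782 on omission of vehicle replicate 1, 0.141 on omission of vehicle replicate 2 and 0.119 on omission of FGF15 replicate 1).

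Among drug-metabolising enzymes, Cyp2b and Cyp2c genes led the rises. Of 28 cytochrome P450 genes of families 1 to 3, 7 rose and 2 fell (25% and 7.14%), 6 and 1 of these held, and 11 rose under each of the other scalings. Cyp2b9 read 32.4 and 23.8 with vehicle and 169.9 and 161 with FGF15 (1.72 ± 0.14), and Cyp2b10, a gene driven by CAR, 1267 and 1220.3 with vehicle and 3264 and 3031 with FGF15 (1.32 ± 0.07) on a probe set that can bind related transcripts. Cyp2c38 read 128 and 129 with vehicle and 389 and 342 with FGF15 (1.31 ± 0.09) and Cyp2c37 1946 and 1821 with vehicle and 3403 and 3549.8 with FGF15 (0.87 ± 0.07). In these 4 genes both FGF15 arrays were above both vehicle arrays. The fall that held was that of Cyp2c70, which makes muricholic acids (-0.52 ± 0.06). Near-identical copies exist in these families, so the split between family members is uncertain.

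Conjugating enzymes moved both ways. Of 36 glutathione, glucuronide and sulfate transferases and their partners, 10 rose and 8 fell (27.8% and 22.2%), and 7 and 5 held. Gsta2 read 322 and 321 with vehicle and 990.3 and 977 with FGF15 (1.52 ± 0.07), and Gsta4, Gstt1, Gstt2, Gstm6 and Gstk1 rose by between 0.44 and 0.65. Ugt2b37 read 112 and 137 with vehicle and 21.7 and 27.1 with FGF15 (-1.47 ± 0.16) and Ugt2b38 379.7 and 380.1 with vehicle and 128 and 108 with FGF15 (-1.46 ± 0.10), and Sult5a1 fell (-0.90 ± 0.12). The rises that held were 6 glutathione transferases and Sult1a1 (0.46 ± 0.08), and the falls that held were 3 Ugt2b genes, Sult5a1 and Ugdh, which makes the glucuronide donor (-0.48 ± 0.06). Leaving out vehicle replicate 1 or 2 gave 5 falls.

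Carriers at the cell surface also moved both ways. Slc22a7, the organic anion carrier OAT2, read 726 and 723 with vehicle and 224 and 221 with FGF15 (-1.57 ± 0.08, adjusted p = 1.9e-06), and Slco1a4, a bile acid and steroid carrier, 397 and 426 with vehicle and 259 and 220.4 with FGF15 (-0.71 ± 0.10). Slc22a5, the carnitine carrier, read 268 and 298 with vehicle and 459.8 and 427 with FGF15 (0.60 ± 0.09). In all, 4 of 19 uptake carriers rose and 2 fell (21.1% and 10.5%), with 2 rises without vehicle replicate 1. Of 24 ABC transporters 2 rose and 1 fell (8.33% and 4.17%), and the 1 change that held was the rise of Abcc3, a pump of the basolateral membrane, at 644 and 658 with vehicle and 1136 and 1167 with FGF15 (0.79 ± 0.06). In retinoid handling Rdh16, a retinol dehydrogenase, read 161 and 148 with vehicle and 339 and 359 with FGF15 (1.03 ± 0.09), the only call besides that of Cyp26a1 that held among 22 genes.

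Genes known to be higher in male than in female mouse liver fell, and all mice here were male. Male-biased genes are kept up in male mice by the pulsed pattern of growth hormone. Of 23 measured genes known to be higher in males, 14 fell and 1 rose, a falling share of 60.9% against 6.64% of all genes, with a median change of -0.41. Of the falls 11 held, and 11 to 15 were called under the other scalings. Hsd3b5, a steroid dehydrogenase, read 1062 and 1088 with vehicle and 383 and 388 with FGF15 (-1.41 ± 0.08, adjusted p = 4.9e-06), Cyp7b1, an oxysterol hydroxylase, 6623 and 6839 with vehicle and 2941 and 3055 with FGF15 (-1.16 ± 0.06), and Scara5, a ferritin receptor, 739 and 742 with vehicle and 356 and 362 with FGF15 (-0.98 ± 0.07). The other probe set of Scara5 gave 0.32 and was not called. Vehicle arrays were close to each other in these 3 genes, and FGF15 arrays were each under them. Of 17 genes known to be higher in females, 5 rose and 3 fell (29.4% and 17.6%). The 4 rises that held were Acot3, Cyp4a14, Cyp2b9 and Cyp2b10, all counted above in other lists, and 1 fall held, that of Lifr, the leukaemia inhibitory factor receptor (-0.48 ± 0.06). In the male list, C6, C8b and the Ugt2b and sulfotransferase genes also stand in lists described elsewhere. Omission of FGF15 replicate 2 or of vehicle replicate 1 gave 1 female-biased faller.

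Hepatocytes differ along the blood flow from the portal tract to the central vein. Of 32 genes known as periportal, 2 rose and 9 fell (6.25% and 28.1%), with 6 of the falls held and 7 to 12 under the other scalings, while the median of -0.12 went to 0.00 with centring. G6pc, glucose-6-phosphatase, read 1602 and 1604 with vehicle and 591 and 661 with FGF15 (-1.31 ± 0.08), Cdh1, E-cadherin, 421 and 441 with vehicle and 159.7 and 151 with FGF15 (-1.31 ± 0.09), and Aldh1b1 318 and 367 with vehicle and 148 and 174 with FGF15 (-0.96 ± 0.10). Pck1, which starts glucose production from oxaloacetate, read 7246 and 7714 with vehicle and 5484 and 5583 with FGF15 (-0.43 ± 0.08), and this call ended without 1 array (adjusted p = 0.0720 on omission of vehicle replicate 2). Of 31 pericentral genes, 7 rose and 5 fell (22.6% and 16.1%). Besides Cyp7a1, Avpr1a, a vasopressin receptor, fell (-1.34 ± 0.14) and Slc13a3, a dicarboxylate carrier (-0.66 ± 0.10). The tight junction gene Cldn2 rose by 0.71 ± 0.08, beside Tbx3, Nr1i3 and Cyp2c37. The pericentral counts fell to 4 risers and 3 fallers without either vehicle array, and to 4 risers without FGF15 replicate 2, and the risers were 9 to 11 under the other scalings.

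**Figure D4:**
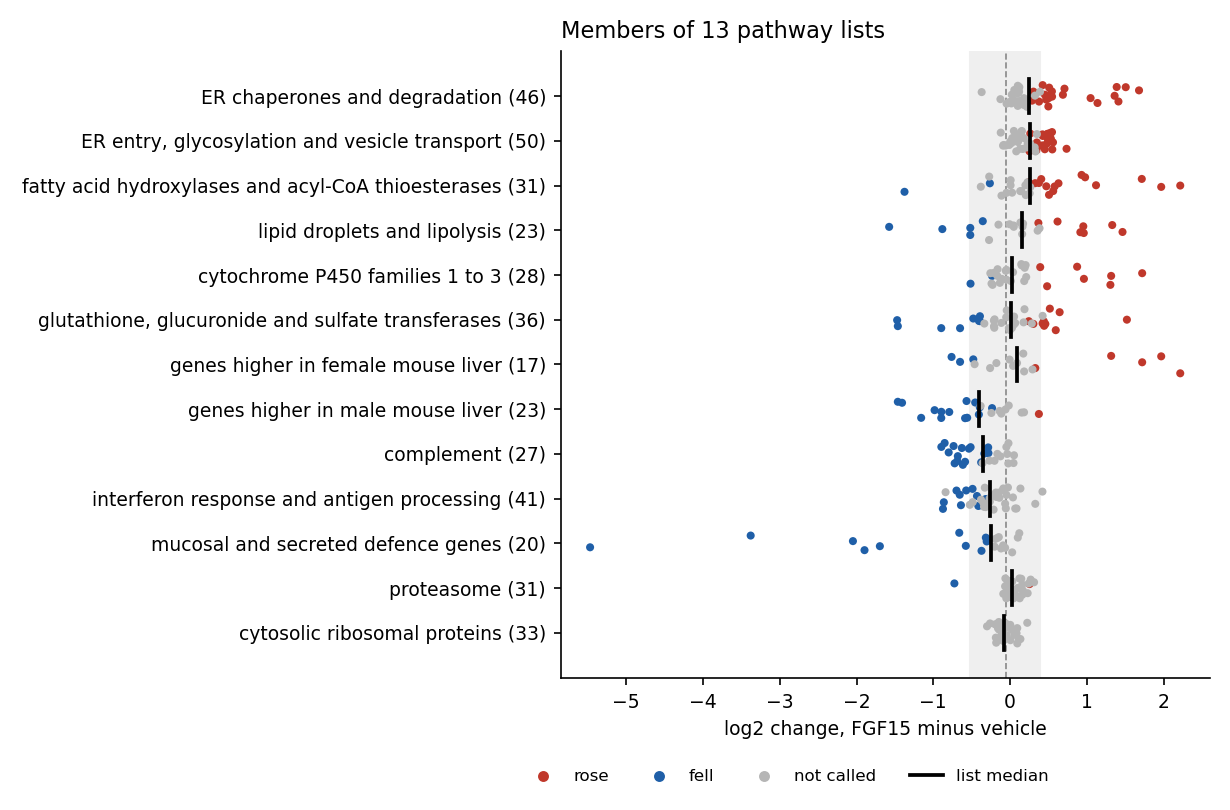
Log2 change with FGF15 of each measured member of 13 gene lists (number measured in brackets), in red where it rose, blue where it fell and grey where it was not called, with a black bar at the list median, a dashed line at the median of all genes tested and a shaded band between the 5th and 95th percentiles of all genes, -0.52 and 0.39. Both ER lists carry no blue point, complement and the interferon list carry no red point, and cytosolic ribosomal proteins lie within the band with neither.

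Complement genes fell with no riser. Complement is a cascade of plasma proteins made mostly by hepatocytes, whose recognition protein C1q comes from macrophages. Of 27 measured genes, 16 fell and none rose in limma, 20 and 0 at an unadjusted p under 0.05. That is a share of 59.3% lower, against 6.64% of all genes, and the median change was -0.36. Of the falls 11 held, and 12 to 18 were called under the other scalings. In the terminal pathway, which forms the membrane pore, C9 read 6049.8 and 5877 with vehicle and 3365 and 3459.6 with FGF15 (-0.80 ± 0.07, adjusted p = 4.8e-05), Hc, component C5, 5375 and 5496 with vehicle and 3278 and 3286 with FGF15 (-0.72 ± 0.06), and C8b 2049.6 and 2101 with vehicle and 1009 and 1201 with FGF15 (-0.90 ± 0.08). C6 and C8a fell (-0.59 ± 0.06 and -0.54 ± 0.07). In the early steps, C2 fell (-0.68 ± 0.10), C1ra (-0.62 ± 0.07) and Masp2, of the lectin pathway (-0.51 ± 0.07). The C1q chains C1qa, C1qb and C1qc changed by -0.85, -0.63 and -0.74, with C1qc at 742 and 735 with vehicle and 425 and 437 with FGF15. The falls of the genes named from the terminal pathway and C1q lay between 1.45-fold and 1.86-fold. Of 31 coagulation and fibrinolysis genes, 1 rose and 2 fell (3.23% and 6.45%), and Thbd, the thrombin receptor thrombomodulin, was the 1 call that held (-0.96 ± 0.11).

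Markers of Kupffer cells, which are resident liver macrophages, also fell. Of 20 measured markers, 15 fell and none rose in limma, 17 and 0 at an unadjusted p under 0.05, with a median of -0.60. That is 75% lower, against 6.64% of all genes, whose median was -0.05. Of the falls 8 held. The count was 11 without FGF15 replicate 1, 9 without each of the other arrays in turn, and 11 to 14 under the other scalings. Mpeg1, perforin-2, read 717 and 734 with vehicle and 287 and 305 with FGF15 (-1.21 ± 0.07, adjusted p = 5.6e-06), Clec4f, a lectin of Kupffer cells, 683 and 639 with vehicle and 366 and 375 with FGF15 (-0.78 ± 0.08), and Csf1r, the receptor on which these cells depend, 1056 and 977 with vehicle and 610.0 and 625 with FGF15 (-0.69 ± 0.07). The FGF15 level was the lower one on each array. The summed signal of the 20 markers was 8745 to 8818 on the vehicle arrays and 5281 to 5385 on the FGF15 arrays, and no marker was at 0. In bulk liver, fewer cells of a type and less RNA per cell cannot be told apart. Since C1qa, C1qb and C1qc stand in both lists, the macrophage marker values belong beside the complement count, and their part in it was not tested.

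Of 41 genes of interferon response and antigen processing, 12 fell, or 29.3% against 6.64% of all genes, and none rose in limma, 20 and 2 at an unadjusted p under 0.05, with 5 of the falls held and 6 to 14 under the other scalings. Omission of vehicle replicate 1 gave 5 fallers, that of vehicle replicate 2 gave 6, and that of FGF15 replicates 1 and 2 gave 7 and 8. Irf7, an interferon regulatory factor, read 342 and 312 with vehicle and 174 and 157 with FGF15 (-0.86 ± 0.09), Cd74, the chaperone of MHC class II, 671 and 661 with vehicle and 392 and 431 with FGF15 (-0.66 ± 0.07), and Tapbp, tapasin, 813 and 806 with vehicle and 548 and 520.0 with FGF15 (-0.57 ± 0.07). Each was higher on both vehicle arrays, but the other probe set of Tapbp gave -0.14 and was not called. Of 20 mucosal and secreted defence genes, 10 fell (50%) and none rose, the same counts as at an unadjusted p under 0.05, and 6 falls held, with 6 fallers without vehicle replicate 1. Besides Moxd1 and Tff3 these were Dmbt1, a scavenger protein, at 133 and 108 with vehicle and 3.76 and 5.89 with FGF15, Saa3, serum amyloid A3, at 922 and 926 with vehicle and 225 and 224 with FGF15 (-1.90 ± 0.08), Orm2, an acid glycoprotein, at 4075 and 4292 with vehicle and 1306 and 1233 with FGF15 (-1.70 ± 0.06), and Pglyrp2 (-0.58 ± 0.08). Several genes of both lists are also made by macrophages, whose markers fell as given above, and the part of that in these counts was not tested. The members of the defence list had been chosen with Moxd1, Tff3 and Dmbt1 already known to fall. Its share of 50% and its 6 falls that held were thus partly fixed in advance and are no independent result about defence genes.

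Markers of other cell types were counted in the same way. Of 13 hepatocyte markers 1 fell, Tat, tyrosine aminotransferase (-0.73 ± 0.08), and the other 12 did not pass. Of 10 markers of bile duct cells 3 fell (30%). These were Cdh1 and the keratins Krt8, at 2265 and 2407 with vehicle and 1301 and 1149 with FGF15 (-0.92 ± 0.07), and Krt18, at 2170.4 and 2389.8 with vehicle and 1618 and 1634 with FGF15 (-0.48 ± 0.07), all of which hepatocytes also express. Of 20 markers of stellate cells and fibroblasts, 7 fell (35%) and none rose, 10 and 1 at an unadjusted p under 0.05, with 4 falls without either vehicle array, and Col3a1, a fibrillar collagen, read 249 and 291 with vehicle and 113 and 119 with FGF15 (-1.02 ± 0.11). Lrat of the stellate list went the other way, at 46.7 and 52.4 with vehicle and 82.0 and 81.3 with FGF15 (0.48 ± 0.14). It did not pass (adjusted p = 0.054 in limma), and 1 stellate marker rose under each of the 3 other scalings. Of 8 neutrophil markers 3 fell (37.5%) and 5 were not called. S100a8 read 297 and 294 with vehicle and 120.4 and 133 with FGF15 (-1.05 ± 0.10). Among the uncalled, Elane, Mpo and Mmp8 changed by 0.35, 0.07 and 0.06, and Il1b and Ngp by -0.54 and -0.06. The means of Elane, Mpo and Mmp8 lay below the offset of 32 in both groups. Of 22 markers of sinusoidal endothelium 2 fell (9.09%), and Lyve1, a hyaluronan receptor, held (-0.61 ± 0.09). The other probe set of Lyve1 gave -0.25 and was not called. Among T and NK cell, platelet, pancreatic acinar and skeletal muscle markers, 25 genes in all, limma called none, and at an unadjusted p under 0.05 none was higher and 1 was lower. Except for Cela1, Pf4 and Itga2b, they lay in the lowest of the 4 classes by vehicle signal. Only 0.702% of that class rose and 0.743% fell, so the lack of calls says little about these cells.

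**Figure D5:**
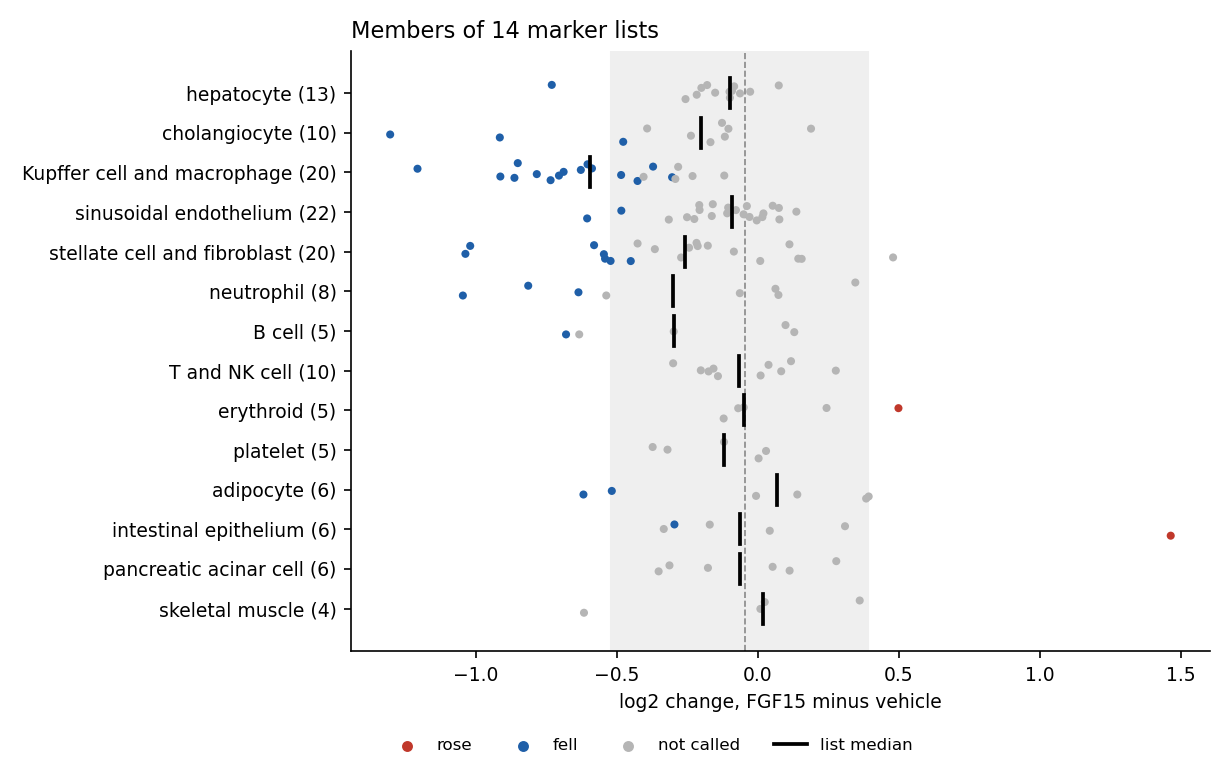
Log2 change with FGF15 of each measured member of 14 lists of cell type and tissue markers (number measured in brackets), coloured and marked as in the plot of pathway lists. The Kupffer cell and macrophage list has the lowest median, -0.60, and the hepatocyte markers other than Tat are grey.

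Some enzymes and carriers of amino acids fell. Of 45 genes of the urea cycle and amino acid breakdown, 3 rose and 6 fell (6.67% and 13.3%), and 5 falls held. Besides Ddc and Tat these were Aadat, which acts on lysine and tryptophan metabolites, at 1225 and 1281 with vehicle and 708 and 714 with FGF15 (-0.79 ± 0.07), Got1 (-0.53 ± 0.08) and Csad, of taurine synthesis, at 681 and 703 with vehicle and 469.7 and 475 with FGF15 (-0.52 ± 0.07). The rises were 6 with centring, 2 without FGF15 replicate 1 and 0 without any other array. Of 20 amino acid transporters 1 rose and 5 fell (5% and 25%), and Slc3a1, Slc25a22 and Slc7a2 held (-0.76 ± 0.08, -0.57 ± 0.06 and -0.46 ± 0.07). Asns, asparagine synthetase, read 206 and 191 with vehicle and 50.4 and 47.0 with FGF15 (-1.52 ± 0.11). Of 21 aminoacyl-tRNA synthetases 1 rose (4.76%) and none fell in limma, 4 and 2 at an unadjusted p under 0.05. With centring 4 rose, and on omission of FGF15 replicate 2 or vehicle replicate 1 none did.

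In glucose breakdown, 4 of 27 genes rose and 4 fell (14.8% and 14.8%). Pklr, the liver pyruvate kinase, read 445 and 424 with vehicle and 719 and 766 with FGF15 (0.73 ± 0.10), Pdha1, of pyruvate dehydrogenase, 719 and 772 with vehicle and 1058 and 1066 with FGF15 (0.49 ± 0.07), and Pdk1, a kinase that inhibits it, 394 and 432 with vehicle and 595 and 576 with FGF15 (0.47 ± 0.08). These rises held, and none of the falls did, and omission of FGF15 replicate 1 or vehicle replicate 2 gave 0 falls, that of vehicle replicate 1 gave 1 and that of FGF15 replicate 2 gave 2. With centring 7 rose and 2 fell. In iron and heme handling, 5 of 31 genes rose and 7 fell (16.1% and 22.6%), 3 fallers without vehicle replicate 1. Steap4, a metalloreductase, read 1761 and 1672 with vehicle and 3423 and 3533 with FGF15 (1.01 ± 0.06) and Hamp2, a hepcidin gene, 1127 and 1174 with vehicle and 2368 and 2106 with FGF15 (0.94 ± 0.07) on a probe set that can bind related transcripts. Hmox1, heme oxygenase, read 461 and 434 with vehicle and 177 and 209.8 with FGF15 (-1.09 ± 0.09), and Tfrc, the transferrin receptor, rose by 0.50 ± 0.08. The other 2 probe sets of Tfrc each gave 0.15 and were not called. Of 22 p53 targets 2 rose and 5 fell (9.09% and 22.7%), with 3 fallers under centring or on omission of vehicle replicate 2 and 2 on omission of vehicle replicate 1. Cdkn1a, the cell cycle inhibitor p21, read 202 and 217 with vehicle and 84.6 and 77.9 with FGF15 (-1.09 ± 0.09) and Trp53inp1 864 and 789.6 with vehicle and 386 and 367 with FGF15 (-1.07 ± 0.07), the falls that held.

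Of 33 cytosolic ribosomal protein genes limma called none, 4 were lower and none higher at an unadjusted p under 0.05, and 1 fell without FGF15 replicate 1. Of 31 proteasome genes 1 rose and 1 fell (3.23% and 3.23%) and neither held, although 7 rose with centring. Of 36 genes of the mitochondrial ribosome and import 4 rose and 1 fell (11.1% and 2.78%), and Mrps14 held (0.48 ± 0.07), although its other probe set gave -0.57, not called, and the mean over both -0.05. Leaving out FGF15 replicate 1 gave 2 risers in this list, and leaving out FGF15 replicate 2 or vehicle replicate 1 gave 1. Of 34 genes of autophagy and the lysosome 1 rose and 6 fell (2.94% and 17.6%), and Ulk1, the kinase that starts autophagy, held at 561 and 611 with vehicle and 371 and 344 with FGF15 (-0.67 ± 0.08). Centring gave 2 fallers in that list, as did omission of FGF15 replicate 2 or vehicle replicate 2, and omission of vehicle replicate 1 gave 1. Of 29 genes of one-carbon, methionine and choline metabolism 4 rose and 1 fell (13.8% and 3.45%), and Cept1, a choline and ethanolamine phosphotransferase, held (0.50 ± 0.08). Without vehicle replicate 1 the risers were 1, without FGF15 replicate 2 2, and with centring 7. The fallers were 5 with cyclic loess and 4 with quantile scaling.

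The FGF15 response was set against FGF19, the human orthologue, only to see where it differed. The difference FGF19 minus FGF15 was called for 4.29% of genes tested and for 203 of the 1213 genes called with FGF15. Of these 203, 57 rose with FGF15 and were lower with FGF19, and 23 rose and were higher. Another 105 fell and were higher with FGF19, and 18 fell and were lower. The same FGF15 arrays enter both differences, and the genes were selected on the first. Error in those arrays alone would put risers lower and fallers higher with FGF19. The split may thus be partly built in, and it is no measure of a weaker response to FGF19. The count of 203 became 105 and 102 on omission of vehicle replicates 1 and 2, and 133 and 126 on omission of FGF15 replicates 1 and 2. FGF19 replicate 1 stood apart in the signal of a control probe set for 18S RNA, at 32.3 against 4.25 to 5.82 on the other arrays, and without it the count was 136.

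Inhbe, 638 and 679.7 with FGF15, read 187 and 168 with FGF19 (difference -1.72 ± 0.09, adjusted p = 3.5e-06). Cyp2b9 read 35.5 and 36.0 (-1.54 ± 0.14, adjusted p = 0.0002), G0s2 461 and 465 (-1.31 ± 0.07, adjusted p = 3.8e-06) and Cyp26a1 277 and 278 (-1.26 ± 0.11, adjusted p = 0.00014). With FGF19 all of these were below both FGF15 arrays. Egr1 read 2607 and 2642 with FGF19 (2.92 ± 0.09, adjusted p = 1.4e-07), Trp53inp1 1617 and 1511 (1.97 ± 0.07, adjusted p = 5.6e-07) and Cdkn1a 383 and 403 (1.91 ± 0.09, adjusted p = 3.5e-06), all above the FGF15 arrays. Igfbp1, an insulin-like growth factor binding protein, did not pass with FGF15, at 740.1 and 753 with vehicle and 709 and 742 with FGF15 (-0.04 ± 0.07, 95% interval -0.19 to 0.11), and read 6925 and 7630.2 with FGF19 (3.27 ± 0.07, adjusted p = 6.2e-09). Among the ER genes, Creld2 read 1493 and 1464 with FGF19, a difference of -0.06 ± 0.08, adjusted p = 0.74, that did not pass, with a 95% interval of -0.23 to 0.11. Dnajb9 read 2644 and 2617, below both FGF15 arrays (-0.44 ± 0.06, adjusted p = 0.0024).

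Where a gene had further probe sets, they could be read as another measure in the same arrays. For 284 of the genes that rose there were 460 other probe sets above the filter, of which 358 had the same sign, 148 were called higher and none was called lower. For 285 of the genes that fell there were 467, of which 434 had the same sign, 167 were called lower and 1 was called higher. That 1 belonged to Vps37c, of vesicle sorting, whose probe sets gave -0.38 and 0.53 and can both bind related transcripts. Among the genes named above, the other probe sets of Pex3 (0.17), Slc22a5 (0.27), Masp2 (-0.34) and Cldn2 (0.41), for example, were not called. Probe sets open to binding related transcripts gave 56 of the rises and 79 of the falls.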

How the data were processed

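RNA from whole liver was hybridised to 1-colour Affymetrix arrays, 2 per group and 6 in all. The deposited values are linear intensities per probe set, and on each array their trimmed mean was the same, so the authors had scaled them, and the summarisation software was not given in the sources used here. Raw scans were not used. Of 22690 probe sets, 64 were controls, 20380 were paired with 1 gene by the platform annotation, 691 with several and 1555 with none. Symbols were updated to RefSeq through Entrez identifiers for 20351. Each of the 12393 genes was read on its probe set with the highest mean log2 value over all arrays. Genes whose mean lay below the 25th percentile of all probe sets, a signal of 14.0, were left out, which removed 2701.

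log2(intensity + 32) was fitted with limma 3.58.1 in R 4.3.3 (lmFit and eBayes with an intensity trend, group as the only term, all 6 arrays), two-sided, with Benjamini-Hochberg adjustment over 9692 genes. The script was tested on simulated data. Errors given with ± are limma standard errors, with a median of 0.13 and 2 arrays a group, and the number of arrays limits the precision. Alternatives were other offsets, filters, scalings and probe set rules, a fit without the trend, and leaving out each array.

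The 53 gene lists (39 of pathways and 14 of markers) hold 1232 tested entries, and the comparison and the lists were chosen with earlier results of these data known. Genes named by rule began with the 20 largest rises and falls that held, with no overlap between the arrays of the groups. Up to 4 members of each list by p, a set of known hormone targets and the 6 largest FGF19 differences each way were added. Called genes with an opposed probe set and the 5 highest-signal called genes each way completed them. Other list members were chosen after their values were seen. Promoters came from RefSeq assembly GRCm38.p6.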

Additional observations from a re-analysis of the deposited data

How the results depend on the processing

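Against 569 genes higher and 644 lower, centring each array on its median gave 1008 and 356, and a fit without the intensity trend gave 243 and 394, with 69 in place of 203 genes that also differed from FGF19. Leaving out 1 array of vehicle or FGF15 gave 271 to 406 higher and 267 to 489 lower, and leaving out FGF19 replicate 1 gave 572 and 620. The genes that differed from FGF19 were 102 to 164 when any 1 of the 6 arrays was left out. Offsets of 16 and 64, quantile and cyclic loess scaling, no filter, a filter at the median, the mean of a gene's probe sets and a fit of only the arrays compared gave 452 to 641 higher and 483 to 658 lower, all within 1.5 times of the reported counts. No gene called in the reported fit was called in the opposite direction in any of these fits. Testing every probe set on its own gave 751 and 877 probe sets. With the mean of all probe sets, Mrps14 came to -0.0469 and Vps37c to 0.0757, and neither was called. With the replicate number as a block, 581 genes were higher, 665 lower and 220 differed from FGF19. The numbers do not pair the samples, since deviations of same-numbered arrays correlated at 0.0811, -0.0216 and 0.0502. The omission of FGF19 replicate 1 for the counts with FGF15, and the list counts under quantile and loess scaling, were added after seeing the data. With 2 arrays a group, small changes and genes near background are the least certain, and the cause of each difference between settings was not tested.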

Other observations

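Probe sets that the annotation pairs with no gene or with several genes were outside the gene comparison and also held signals that differed. In limma fits with adjustment over all probe sets fitted, 32 of 900 with no gene rose and 69 fell, and 22 of 532 with several genes rose and 42 fell. The largest change was that of 1448754_at, with no gene in the annotation, which read 473.6 and 505.8 with vehicle and 78.0 and 79.3 with FGF15, a log2 change of -2.24. The probe set 1427798_x_at, also unnamed, read 1350 and 1258 with vehicle and 452 and 431 with FGF15 (-1.50). The unnamed 1451973_at read 153 and 177 with vehicle and 302 and 355 with FGF15 (0.87). In all 3 the arrays of the groups did not overlap, and which transcripts they read was not tested.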
